A study of Mus musculus with 12 samples.

Results

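Open chromatin was examined at 6 TNF receptor family genes of mouse regulatory T cells (Treg), namely Tnfrsf4, Tnfrsf18, Tnfrsf9, Tnfrsf1b, Tnfrsf8 and Cd27. The members are the open chromatin regions that overlapped the body of one of these genes or the 20 kb on either side of it in the mm9 annotation. There were 85 such regions among the 118680 of the whole data set. The Tnfrsf4 window held 14 regions, the Tnfrsf18 window 13, the Tnfrsf9 window 20, the Tnfrsf1b window 20, the Tnfrsf8 window 28 and the Cd27 window 10, and 20 regions lay in 2 windows because Tnfrsf4 lies next to Tnfrsf18 and Tnfrsf1b next to Tnfrsf8. A region entered the tests when it reached 3.6 CPM (counts scaled to the total of the library) in at least 3 of the 12 libraries, and 73 of the 85 did so. The 12 others had a mean of 1.76 to 3.00 CPM and were not tested.

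Receptors of the TNF superfamily are membrane proteins with cysteine-rich extracellular repeats that are engaged by trimeric ligands, and most of those studied here recruit TRAF adaptors and activate NF-kB. Treg express several of them, among them OX40 (Tnfrsf4), GITR (Tnfrsf18) and TNFR2 (Tnfrsf1b), which act as costimulatory receptors and support the survival and expansion of these cells, and Tnfrsf9 is known as a marker of recently activated Treg. CD30 (Tnfrsf8) is an activation-induced receptor, and CD27 is a costimulatory receptor that naive T cells already carry. Ikaros, the product of Ikzf1, is a zinc finger DNA-binding protein of lymphocytes that recruits chromatin-remodelling complexes.

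Accessibility was measured by ATAC-seq, in which the Tn5 transposase inserts adapters into open DNA, so that reads pile up over accessible regions. The WT group came from Foxp3-YFP-Cre mice, which carry Cre and YFP under control of the Treg factor Foxp3, and the Ikzf1-cko group from Ikzf1-fl-Foxp3-YFP-Cre mice, in which the same Cre deletes a floxed Ikzf1 in Foxp3-expressing cells. Both groups therefore carried the Cre. YFP+ Treg, labelled as derived from spleen, were sorted, and were either left unstimulated (ex vivo) or cultured for 4 h on plate-bound antibodies against CD3 and CD28 (stimulated). Each of the 4 groups held 3 libraries, and the age of the mice was not given. The methods call the replicates biological, while neither they nor the labels say which mice each library came from, so the p-values measure the spread between these libraries.

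Libraries held 5197669 to 8596567 reads on regions in the WT ex vivo group, 11698967 to 15355521 in Ikzf1-cko ex vivo, 4808916 to 6047073 in WT stimulated and 9221901 to 11465957 in Ikzf1-cko stimulated. Every Ikzf1-cko library was thus deeper than every WT library of its condition, and counts were less precise in WT Treg. A region covered the start site of Foxp3, Il2ra, Ctla4, Ikzf4, Cd4 and Cd3e, that is 6 of the 7 Treg markers examined, and none that of Ikzf2. Start sites of other lineages were covered for 1 of 7 B cell genes (Ebf1), 2 of 6 myeloid genes, 1 of 3 NK cell genes and 0 of 4 erythroid genes. The CD8 genes Cd8a and Cd8b1 were both covered, with summed FPKM of 20.7 to 24.2 in WT and 10.8 to 14.6 in Ikzf1-cko ex vivo libraries and of 19.98 to 23.4 and 14.7 to 16.1 after stimulation. The summed FPKM of the myeloid genes was 20.3 to 21.5 in WT and 25.8 to 28.7 in Ikzf1-cko ex vivo libraries. These values moved with genotype, and their part in the results below was not tested. The deleted part of Ikzf1 is not stated in the sources used here, and no library had a count of 0 in any of the 31 regions at this gene, so accessibility does not check the genotype. In bulk libraries, fewer accessible cells and lower accessibility per cell cannot be told apart.

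The results turn on the members called with the fold threshold of 1 on the log2 scale, described below. Their middle 300 bases are given here from the mm9 reference, plus strand, except for a region over an untranslated Tnfrsf9 exon (OCR_83622), which is not printed, and for the Tnfrsf8 start, shown by the 250 bases before it, minus strand. The stretch downstream of Tnfrsf18 is added as the member with the smallest p with stimulation at that gene. Capitals mark matches, on either strand, to GGGAA (the Ikaros core), TGACTCA or TGAGTCA (AP-1), GTAAACA (forkhead), TGTGGT (Runx) and the NF-kB consensus. The Tnfrsf8 intron (chr4:144902447-144902746), the Tnfrsf1b intron (chr4:144825944-144826243) and the stretch upstream of Tnfrsf1b (chr4:144840024-144840323) lost accessibility with stimulation in both genotypes, as did the stretch downstream of Tnfrsf18 (chr4:155404828-155405127) and the Tnfrsf8 start (chr4:144905068-144905317). The stretch near Cd27 (chr6:125188495-125188794) gained accessibility in both genotypes, and the one far upstream of it (chr6:125202769-125203068) in Ikzf1-cko Treg, while its change in WT Treg did not pass.
Tnfrsf8 intron: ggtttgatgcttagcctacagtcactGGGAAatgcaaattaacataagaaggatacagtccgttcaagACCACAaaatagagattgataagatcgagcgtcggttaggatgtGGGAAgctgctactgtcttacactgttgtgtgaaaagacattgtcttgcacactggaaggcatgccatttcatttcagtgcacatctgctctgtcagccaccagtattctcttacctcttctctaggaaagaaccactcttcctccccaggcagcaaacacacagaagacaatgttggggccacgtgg
Tnfrsf1b intron: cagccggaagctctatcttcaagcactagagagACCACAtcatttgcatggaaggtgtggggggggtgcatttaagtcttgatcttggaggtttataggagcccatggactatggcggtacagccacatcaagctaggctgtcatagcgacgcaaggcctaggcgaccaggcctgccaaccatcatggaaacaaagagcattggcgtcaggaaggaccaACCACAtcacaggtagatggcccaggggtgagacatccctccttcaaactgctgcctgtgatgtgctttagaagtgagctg
Upstream of Tnfrsf1b: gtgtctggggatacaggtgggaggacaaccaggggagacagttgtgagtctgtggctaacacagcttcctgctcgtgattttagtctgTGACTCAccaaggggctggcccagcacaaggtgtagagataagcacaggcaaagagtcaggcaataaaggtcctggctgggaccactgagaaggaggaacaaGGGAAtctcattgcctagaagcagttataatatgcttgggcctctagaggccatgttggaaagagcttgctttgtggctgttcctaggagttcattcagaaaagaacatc
Downstream of Tnfrsf18: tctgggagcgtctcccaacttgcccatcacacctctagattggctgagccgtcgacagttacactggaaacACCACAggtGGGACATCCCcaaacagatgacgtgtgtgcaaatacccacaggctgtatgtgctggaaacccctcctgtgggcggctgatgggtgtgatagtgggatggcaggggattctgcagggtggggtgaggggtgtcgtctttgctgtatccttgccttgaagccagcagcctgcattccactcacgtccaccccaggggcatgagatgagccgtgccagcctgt
Near Cd27: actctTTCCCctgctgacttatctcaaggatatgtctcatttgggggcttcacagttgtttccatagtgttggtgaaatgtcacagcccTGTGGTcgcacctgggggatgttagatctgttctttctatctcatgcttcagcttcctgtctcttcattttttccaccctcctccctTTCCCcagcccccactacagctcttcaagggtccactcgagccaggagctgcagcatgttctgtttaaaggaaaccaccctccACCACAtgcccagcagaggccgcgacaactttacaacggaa
Far upstream of Cd27: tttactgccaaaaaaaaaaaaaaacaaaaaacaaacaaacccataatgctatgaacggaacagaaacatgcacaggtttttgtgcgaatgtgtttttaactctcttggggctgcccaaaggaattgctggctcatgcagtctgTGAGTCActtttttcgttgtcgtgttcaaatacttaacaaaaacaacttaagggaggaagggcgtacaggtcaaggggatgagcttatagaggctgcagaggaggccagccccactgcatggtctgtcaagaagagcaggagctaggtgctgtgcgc
Before the Tnfrsf8 start: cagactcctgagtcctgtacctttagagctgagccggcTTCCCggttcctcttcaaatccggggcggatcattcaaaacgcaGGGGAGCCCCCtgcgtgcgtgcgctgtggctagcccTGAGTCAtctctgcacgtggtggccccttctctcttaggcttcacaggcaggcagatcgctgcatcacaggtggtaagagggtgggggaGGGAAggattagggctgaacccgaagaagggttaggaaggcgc
The Tnfrsf8 intron held 2 GGGAA and 1 Runx match. The Tnfrsf1b intron held 2 Runx matches, and the stretch upstream of Tnfrsf1b 1 GGGAA and 1 AP-1 match. Downstream of Tnfrsf18 there were 1 Runx and 1 NF-kB match. The stretch near Cd27 held 2 GGGAA and 2 Runx matches, and the one far upstream 1 AP-1 match. The 250 bases before Tnfrsf8 held 2 GGGAA, 1 AP-1 and 2 NF-kB matches, the last overlapping within 1 marked stretch.

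Among tested regions of at least 300 bases, GGGAA was present in the central 300 bases of 38 of 63 member regions (60.3%) and of 59.6% of all 64245 regions. AP-1 matches were present in 10 members (15.9%) and 10.6% of all regions, Runx matches in 19 members (30.2%) and 25.1%, forkhead matches in 2 members (3.17%) and 3.75%, and NF-kB matches in 5 members (7.94%) and 10.3%. In the 250 bases upstream of 22367 genes these shares were 56.1% for GGGAA, 3.85% for AP-1, 12.8% for Runx, 2.74% for forkhead and 7.69% for NF-kB. A match shows only that the letters are present, and the shares are a description.

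Summed over all regions of a window, accessibility was lower after 4 h of stimulation at 5 of the 6 genes, and the sixth, Cd27, had overlapping groups. The Tnfrsf1b window, with 13.97 kb of regions, had 482, 521 and 562 CPM in the WT ex vivo libraries and 297, 335 and 316 CPM in the WT stimulated libraries, a change of -39.4%. Its Ikzf1-cko libraries had 610.1, 598 and 500.0 CPM ex vivo and 406, 432 and 453 CPM after stimulation, a change of -24.4%. All stimulated libraries lay below all ex vivo libraries of their genotype, and after stimulation all Ikzf1-cko libraries lay above all WT libraries, by 36.3% on average. The Tnfrsf8 window followed the same order, with 325 ± 28.9 CPM (SD, n = 3) in WT ex vivo, 366 ± 38.0 in Ikzf1-cko ex vivo, 210.0 ± 17.0 in WT stimulated and 292 ± 22.2 in Ikzf1-cko stimulated Treg. The Tnfrsf9 window had 320.2 ± 13.7, 379.8 ± 26.1, 233 ± 29.5 and 288 ± 3.43 CPM in the same order of groups. Here Ikzf1-cko libraries lay above WT libraries both ex vivo and after stimulation, without overlap. The Tnfrsf4 window had 286.5 ± 16.1, 341 ± 24.2, 205 ± 35.4 and 237 ± 13.1 CPM, and the Tnfrsf18 window, which shares most of its regions, had 278 ± 15.8, 335 ± 23.9, 199 ± 34.3 and 231 ± 13.0 CPM. Both windows separated the genotypes ex vivo but not after stimulation. The Cd27 window had 125 ± 3.86, 118 ± 9.91, 121 ± 9.05 and 115 ± 3.14 CPM, and its groups overlapped in all 4 comparisons. With 3 libraries against 3 the exact two-sided permutation test cannot go below p = 0.1, which was reached wherever groups did not overlap. Sums of other gene windows were not computed, and highly accessible regions weigh most in a sum. Over the 13992 tested regions of highest mean CPM, the median log2 fold change with stimulation was -0.25 in WT and -0.02 in Ikzf1-cko Treg. Between genotypes it was 0.12 ex vivo and 0.32 after stimulation.

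**Figure D1:**
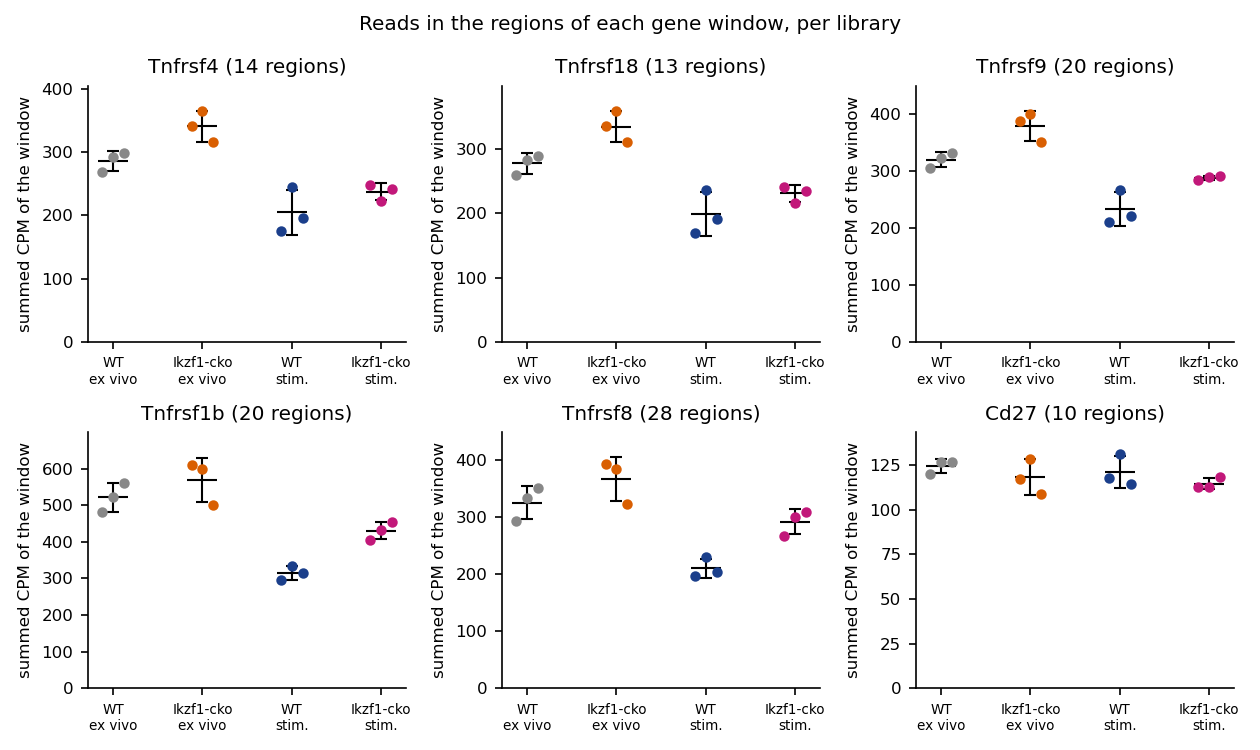
Summed CPM of all regions in each gene window (y axis, from 0) for the 12 libraries in 4 groups (x axis); points are libraries, and bars show the mean and SD of 3 libraries. In 5 windows the stimulated libraries lie below the ex vivo libraries of the same genotype, and the Cd27 groups overlap between 109 and 132 CPM.

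Region by region, the change with stimulation was tested on the counts of all 69957 tested regions, and a region was called at a false discovery rate (FDR) under 0.05, with or without the additional threshold of the study, an absolute log2 fold change over 1. In WT Treg, 32 of the 73 tested members fell at the FDR threshold, where 20.7% of all tested regions did, and 2 rose, where 26.9% of all did. In Ikzf1-cko Treg, 32 members fell, against 11.5% of all tested regions, and 3 rose, against 12% of all. With both thresholds, 5 members fell in WT Treg (2.32% of all tested regions) and 1 rose (17.7% of all), and in Ikzf1-cko Treg 1 fell (0.632% of all) and 2 rose (3.02% of all). The median log2 fold change of the members was -0.38 in WT and -0.31 in Ikzf1-cko Treg, against 0.04 and 0.06 over all tested regions. In each genotype 57 of the 73 members had a negative log2 fold change.

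Member regions were among the more accessible of the data set, and the change with stimulation went with accessibility across all regions. When all tested regions were put in 5 bins of equal size from low to high mean CPM, the bins held 3, 7, 17, 20 and 26 tested members. In the highest bin, 20 of 26 members fell in WT Treg, where 50.1% of all its regions fell, and 18 of 26 fell in Ikzf1-cko Treg, where 22.9% of all did. The median log2 fold change in that bin was -0.54 for members and -0.25 for all regions in WT Treg, and -0.36 and -0.02 in Ikzf1-cko Treg. When the trend with abundance was removed by loess normalization, 21 members still fell in WT Treg, where 14.9% of all regions did, and the member median was -0.22 against 0.02 for all. Thus the members' share of falls lay above that of all regions, and in the highest bin above that of regions of like abundance. Shares within the other bins were not computed. Part of the fall in WT Treg was shared by highly accessible regions in general.

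**Figure D2:**
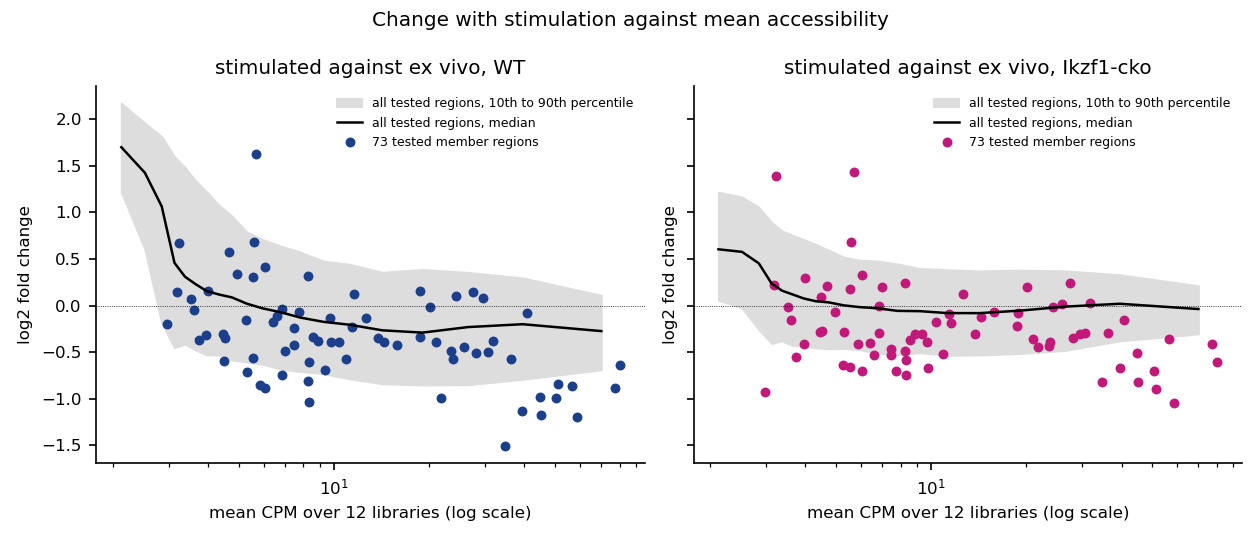
Log2 fold change with stimulation (y axis) against mean CPM over the 12 libraries (x axis, log scale) in WT and Ikzf1-cko Treg; points are the 73 tested member regions, and the line and band give the median and the 10th to 90th percentile of all tested regions. Most members lie below the line, with member medians of -0.38 in WT and -0.31 in Ikzf1-cko Treg, and the median of all WT regions itself falls toward high CPM.

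Tnfrsf8 (chr4:144857040-144905067, minus strand) had the start site with the largest fall of the 6 genes in WT Treg. Accessibility over its start site region (chr4:144904827-144905391, OCR_83185, first exon and upstream sequence) was 69.5, 78.1 and 75.2 FPKM in the WT ex vivo libraries and 102, 94.4 and 80.2 FPKM in the Ikzf1-cko ex vivo libraries. After stimulation it was 23.1, 30.1 and 25.4 FPKM in WT Treg and 48.6, 55.8 and 52.95 FPKM in Ikzf1-cko Treg. All 4 groups were separate, with the Ikzf1-cko ex vivo group highest, followed by WT ex vivo, by stimulated Ikzf1-cko and by stimulated WT Treg. With stimulation the log2 fold change was -1.51 ± 0.122 (SE), adjusted p = 8.2e-11 in WT Treg, a call with both thresholds that was kept under all 23 alternatives tried. In Ikzf1-cko Treg it was -0.82 ± 0.0911, adjusted p = 8.8e-08. Between genotypes, the log2 fold change was 1.01 ± 0.123, adjusted p = 2.6e-07 after stimulation and 0.31 ± 0.0916, adjusted p = 0.014 ex vivo. The stimulated difference was the one member to rise past both thresholds in that comparison, but it lies at the fold threshold. It was 0.91 without WT stimulated 1, 0.99 without WT stimulated 3, 0.96 without Ikzf1-cko stimulated 2 and 0.999 without Ikzf1-cko stimulated 3, with adjusted p of at most 1.3e-05 in these 4 fits. Of the 22 alternatives, 15 kept the call with both thresholds, and it also missed the fold threshold with loess, limma on log2(FPKM + 1) and quantile normalization, the last with 0.67 (adjusted p = 6.9e-05). The ex vivo difference did not pass without WT ex vivo 1, Ikzf1-cko ex vivo 1 or Ikzf1-cko ex vivo 2 (adjusted p = 0.058 to 0.11).

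Across the Tnfrsf8 window, 9 of 22 tested regions fell with stimulation in WT Treg and 7 fell in Ikzf1-cko Treg, and none rose. Of all tested regions 20.7% and 11.5% fell. Ikzf1-cko libraries were higher at 4 regions ex vivo and at 8 after stimulation, and lower at none. Of all tested regions 8.78% and 20.4% were higher in these comparisons, and in the bin of highest mean CPM 22.8% and 61.9%. An intronic region 2.22 kb into the gene (chr4:144902358-144902834, OCR_83184) had 16.1, 23.6 and 17.6 FPKM in the WT ex vivo libraries and 27.7, 26.8 and 23.8 FPKM in the Ikzf1-cko ex vivo libraries. In the stimulated libraries it had 9.71, 9.57 and 8.72 FPKM in WT Treg and 13.6, 15.4 and 17.6 FPKM in Ikzf1-cko Treg. In each genotype all stimulated libraries lay below all ex vivo libraries, and in each condition all Ikzf1-cko libraries lay above all WT libraries. Its log2 fold change with stimulation was -1.04 ± 0.202, adjusted p = 0.00014 in WT and -0.75 ± 0.142, adjusted p = 0.00023 in Ikzf1-cko Treg. The WT value fell under the fold threshold without WT ex vivo 2 (-0.86), without WT stimulated 3 (-0.998), with loess and with limma on log2(FPKM + 1). Between genotypes it was 0.74 ± 0.200, adjusted p = 0.0027 after stimulation and 0.44 ± 0.147, adjusted p = 0.03 ex vivo, and the latter did not pass without WT ex vivo 1, WT ex vivo 3, Ikzf1-cko ex vivo 1 or Ikzf1-cko ex vivo 2 (adjusted p = 0.092 to 0.14).

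Tnfrsf1b (chr4:144803366-144836773, minus strand), the receptor for TNF that Treg carry at high level, had regions that fell both within the gene and upstream of it. In its window, 10 of 17 tested regions fell with stimulation in WT Treg and 7 in Ikzf1-cko Treg, and none rose. Of all tested regions 20.7% and 11.5% fell. At the start site (chr4:144835983-144837006, OCR_83159) accessibility was 31.6, 35.8 and 39.8 FPKM in the WT ex vivo libraries and 46.5, 46.6 and 41.9 FPKM in the Ikzf1-cko ex vivo libraries. The stimulated values were 19.7, 27.8 and 25.8 FPKM in WT Treg and 35.3, 35.1 and 39.9 FPKM in Ikzf1-cko Treg. The groups of each comparison did not overlap, with WT stimulated lowest and Ikzf1-cko ex vivo highest. With stimulation the log2 fold change was -0.57 ± 0.116, adjusted p = 0.00023 in WT and -0.29 ± 0.0917, adjusted p = 0.019 in Ikzf1-cko Treg, the latter not passing without Ikzf1-cko ex vivo 1, Ikzf1-cko ex vivo 2, Ikzf1-cko stimulated 1 or Ikzf1-cko stimulated 2 (adjusted p = 0.072 to 0.089). Between genotypes it was 0.60 ± 0.112, adjusted p = 6.9e-05 after stimulation and 0.32 ± 0.0964, adjusted p = 0.016 ex vivo. The ex vivo value did not pass without WT ex vivo 1, WT ex vivo 2, Ikzf1-cko ex vivo 1 or Ikzf1-cko ex vivo 2 (adjusted p = 0.058 to 0.11).

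The intronic region of Tnfrsf1b whose sequence is given above (chr4:144825714-144826473, OCR_83157, 10.3 kb from the start) had 81.01, 95.01 and 98.1 FPKM in the WT ex vivo libraries and 128, 129 and 103 FPKM in the Ikzf1-cko ex vivo libraries. With stimulation it had 36.99, 43.99 and 39.7 FPKM in WT Treg and 55.8, 56.4 and 61.4 FPKM in Ikzf1-cko Treg. It was among the most accessible members before stimulation and fell without overlap in both genotypes. Its log2 fold change was -1.20 ± 0.103, adjusted p = 2.7e-10 in WT and -1.05 ± 0.0849, adjusted p = 2.2e-10 in Ikzf1-cko Treg, where it was the one member to fall past both thresholds. The Ikzf1-cko value was -0.996 without Ikzf1-cko ex vivo 2, and it also missed the fold threshold with quantile normalization. The WT value missed that threshold with loess and with quantile normalization. The region was higher in Ikzf1-cko Treg ex vivo (0.38 ± 0.0841, adjusted p = 0.0014) and after stimulation (0.53 ± 0.105, adjusted p = 0.00014). The intergenic region upstream of Tnfrsf1b (chr4:144839910-144840437, OCR_83160, 3.14 kb before the start) had 91.5, 94.6 and 105 FPKM in the WT ex vivo libraries and 109, 102 and 77.9 FPKM in the Ikzf1-cko ex vivo libraries. The stimulated libraries gave 43.5, 44.98 and 45.3 FPKM in WT Treg and 55.04, 61.7 and 65.2 FPKM in Ikzf1-cko Treg. Ex vivo the genotypes overlapped, whereas stimulated WT libraries were the lowest of all and separate from the stimulated Ikzf1-cko libraries. Stimulation gave a log2 fold change of -1.13 ± 0.117, adjusted p = 8.8e-09 in WT and -0.67 ± 0.0965, adjusted p = 6.1e-06 in Ikzf1-cko Treg. The WT value missed the fold threshold with loess and with quantile normalization. The genotype difference was 0.45 ± 0.120, adjusted p = 0.0024 after stimulation and -0.01 ± 0.0956, adjusted p = 0.93 ex vivo.

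Tnfrsf9 (chr4:150288671-150320211, plus strand) had no region over its main start site (position 150294299, inside the annotated gene body). Its nearest region in the gene was an intronic one (chr4:150295408-150295684, OCR_83621, 1.11 kb from the start). Accessibility there was 16.7, 21.04 and 16.8 FPKM in the WT ex vivo libraries and 30.8, 27.3 and 17.9 FPKM in the Ikzf1-cko ex vivo libraries. After stimulation it was 17.9, 17.1 and 13.5 FPKM in WT Treg and 17.6, 15.8 and 16.1 FPKM in Ikzf1-cko Treg. The genotypes overlapped in both conditions, and stimulated libraries lay below ex vivo libraries in Ikzf1-cko Treg alone. Its log2 fold change with stimulation was -0.64 ± 0.184, adjusted p = 0.011 in Ikzf1-cko Treg, a call lost without Ikzf1-cko ex vivo 1 or Ikzf1-cko ex vivo 2 (adjusted p = 0.052 to 0.12), and -0.16 ± 0.242, adjusted p = 0.61 in WT Treg. A larger region over a non-coding part of a Tnfrsf9 exon (chr4:150298149-150299435, OCR_83622, 3.85 kb from the start) had 42.5, 39.01 and 42.8 FPKM in the WT ex vivo libraries and 52.4, 54.1 and 47.3 FPKM in the Ikzf1-cko ex vivo libraries. In the stimulated libraries it had 16.4, 22.6 and 15.5 FPKM in WT Treg and 28.1, 29.2 and 30.1 FPKM in Ikzf1-cko Treg. No groups of any comparison overlapped, and WT stimulated was again the lowest. With stimulation the WT log2 fold change was -1.18 ± 0.108, adjusted p = 7.3e-10, and missed the fold threshold with loess normalization. In Ikzf1-cko Treg the log2 fold change was -0.82 ± 0.0857, adjusted p = 3e-08. Between genotypes it was 0.68 ± 0.109, adjusted p = 1.1e-05 after stimulation and 0.31 ± 0.0861, adjusted p = 0.01 ex vivo, the latter not passing without WT ex vivo 2 or Ikzf1-cko ex vivo 2 (adjusted p = 0.068 to 0.077). Over the window, 7 of 17 tested regions fell in WT and 9 in Ikzf1-cko Treg, and Ikzf1-cko libraries were higher at 6 regions ex vivo and at 5 after stimulation, and lower at none. Of all tested regions 20.7% and 11.5% fell, and 8.78% and 20.4% were higher in Ikzf1-cko Treg ex vivo and after stimulation.

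**Figure D3:**
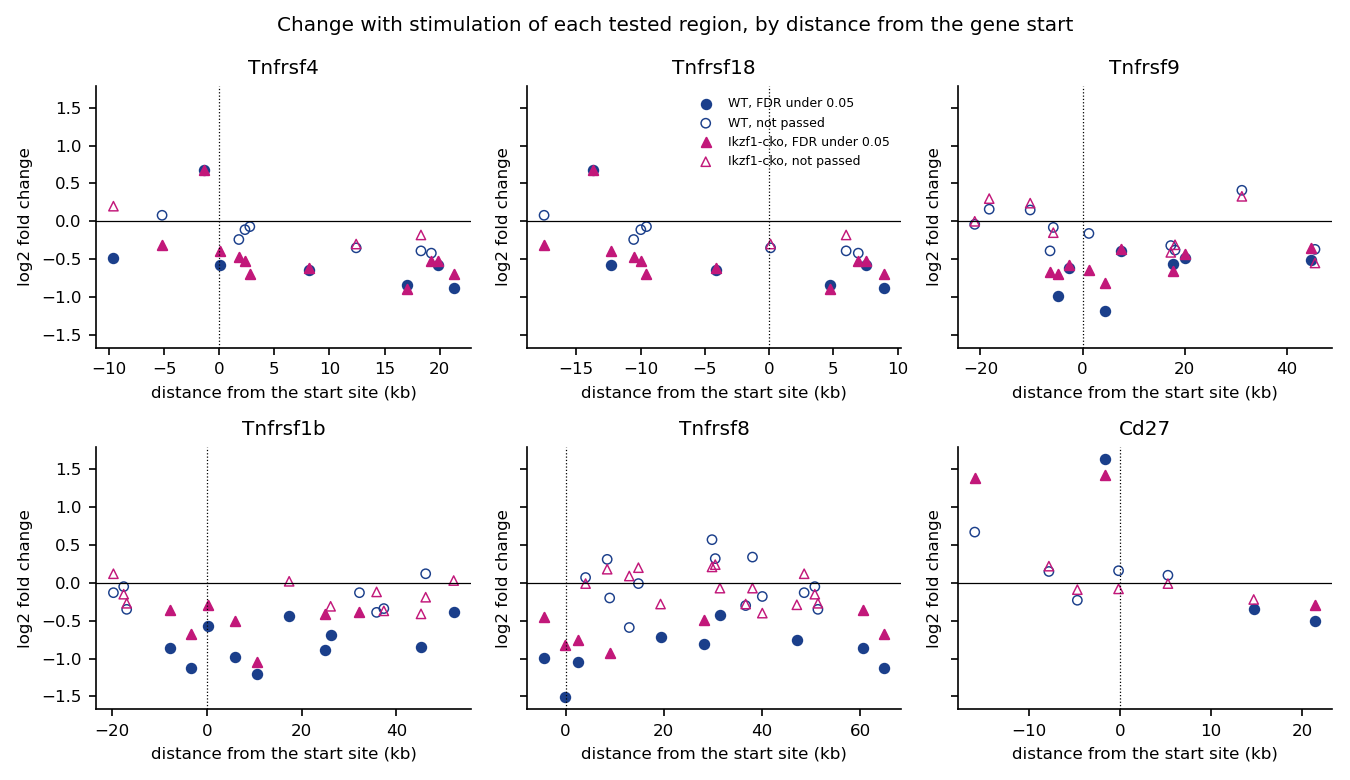
Log2 fold change with stimulation (y axis) of every tested region against its distance from the start site of the gene in kb (x axis, positive into the gene); circles are WT, triangles Ikzf1-cko Treg, and filled symbols passed an FDR of 0.05. Filled symbols lie below 0 along Tnfrsf4, Tnfrsf18, Tnfrsf9, Tnfrsf1b and Tnfrsf8 except at 1 region in the Tnfrsf4 and Tnfrsf18 windows, whereas Cd27 has filled symbols on both sides.

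Tnfrsf4 (chr4:155387952-155390721) and Tnfrsf18 (chr4:155400273-155403004), neighbours on the plus strand, had 14 tested regions between them. With stimulation, 6 fell and 1 rose in WT Treg, and 10 fell and 1 rose in Ikzf1-cko Treg. Of all tested regions 20.7% fell and 26.9% rose in WT Treg, and 11.5% fell and 12% rose in Ikzf1-cko Treg. Over the Tnfrsf4 start (chr4:155387533-155388454, OCR_83999) accessibility was 27.8, 31.3 and 29.02 FPKM in the WT ex vivo libraries and 29.8, 34.8 and 26.5 FPKM in the Ikzf1-cko ex vivo libraries. The stimulated values were 15.6, 26.2 and 17.8 FPKM in WT Treg and 25.9, 21.97 and 21.9 FPKM in Ikzf1-cko Treg. Stimulated libraries lay below ex vivo libraries in each genotype, and the genotypes overlapped. The log2 fold change was -0.57 ± 0.144, adjusted p = 0.0018 in WT and -0.39 ± 0.118, adjusted p = 0.015 in Ikzf1-cko Treg, and the second call was lost without Ikzf1-cko ex vivo 2, Ikzf1-cko stimulated 2 or Ikzf1-cko stimulated 3 (adjusted p = 0.072 to 0.13). Over the Tnfrsf18 start (chr4:155400209-155400551, OCR_84004) accessibility was 38.1, 38.2 and 40.4 FPKM in the WT ex vivo libraries and 47.7, 56.4 and 47.4 FPKM in the Ikzf1-cko ex vivo libraries. With stimulation it was 24.6, 44.2 and 22.4 FPKM in WT Treg and 36.99, 39.8 and 45.5 FPKM in Ikzf1-cko Treg. WT stimulated libraries were widely spread and overlapped all other groups but Ikzf1-cko ex vivo. Neither stimulation comparison passed (-0.35 ± 0.180, adjusted p = 0.11 in WT and -0.30 ± 0.136, adjusted p = 0.11 in Ikzf1-cko Treg). The genotype difference after stimulation, 0.42 ± 0.171, adjusted p = 0.038, was lost without WT stimulated 1, WT stimulated 3, Ikzf1-cko stimulated 2 or Ikzf1-cko stimulated 3 (adjusted p = 0.06 to 0.25).

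Regions between and behind these neighbours fell as well. The region downstream of Tnfrsf18 (chr4:155404654-155405301, OCR_84005, 4.38 kb from its start) had 89.7, 93.03 and 98.4 FPKM in the WT ex vivo libraries and 112, 114 and 105 FPKM in the Ikzf1-cko ex vivo libraries. The stimulated libraries gave 47.7, 55.5 and 55.2 FPKM in WT Treg and 62.9, 54.03 and 60.97 FPKM in Ikzf1-cko Treg. Stimulated libraries of both genotypes were far below all ex vivo libraries. On the log2 scale the change was -0.84 ± 0.0906, adjusted p = 1.9e-08 in WT and -0.90 ± 0.0768, adjusted p = 7.1e-10 in Ikzf1-cko Treg. Ex vivo the genotypes differed by 0.23 ± 0.0762, adjusted p = 0.027, a call lost without WT ex vivo 1, WT ex vivo 2, Ikzf1-cko ex vivo 1 or Ikzf1-cko ex vivo 2 (adjusted p = 0.084 to 0.11). The intergenic region between the genes (chr4:155395413-155396850, OCR_84003, 3.42 kb before Tnfrsf18) had 55.9, 63.5 and 64.4 FPKM in the WT ex vivo libraries and 73.3, 78.7 and 69.2 FPKM in the Ikzf1-cko ex vivo libraries. After stimulation it had 31.7, 47.8 and 39.04 FPKM in WT Treg and 49.2, 45.1 and 51.1 FPKM in Ikzf1-cko Treg. It fell in both genotypes without overlap, by log2 fold changes of -0.64 ± 0.0981, adjusted p = 5.8e-06 in WT and -0.61 ± 0.0855, adjusted p = 4.2e-06 in Ikzf1-cko Treg. Its genotype difference was 0.30 ± 0.0974, adjusted p = 0.011 after stimulation, lost without WT stimulated 1 or Ikzf1-cko stimulated 3 (adjusted p = 0.057 to 0.2), and 0.26 ± 0.0864, adjusted p = 0.029 ex vivo, lost without WT ex vivo 1, WT ex vivo 2, Ikzf1-cko ex vivo 1 or Ikzf1-cko ex vivo 2 (adjusted p = 0.058 to 0.15).

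Regions of the Tnfrsf4 and Tnfrsf18 windows that lie in other parts of the neighbourhood changed differently. A region over a coding exon of the neighbouring gene Sdf4 (chr4:155382159-155383380, OCR_83997) had 18.7, 20.2 and 19.99 FPKM in the WT ex vivo libraries and 31.8, 33.4 and 27.5 FPKM in the Ikzf1-cko ex vivo libraries. In the stimulated libraries it had 17.5, 23.9 and 21.4 FPKM in WT Treg and 26.6, 24.3 and 23.98 FPKM in Ikzf1-cko Treg. Ikzf1-cko libraries lay above WT libraries in each condition, while WT Treg overlapped between conditions. It had the smallest p ex vivo in both windows, with a difference on the log2 scale of 0.65 ± 0.102, adjusted p = 2.5e-05 in Ikzf1-cko against WT. Its fall with stimulation in Ikzf1-cko Treg (-0.31 ± 0.0932, adjusted p = 0.014) was lost without Ikzf1-cko ex vivo 1, Ikzf1-cko ex vivo 2, Ikzf1-cko stimulated 2 or Ikzf1-cko stimulated 3 (adjusted p = 0.054 to 0.099). An intronic region of Sdf4 (chr4:155378152-155378562, OCR_83996) had 21.1, 22.2 and 22.4 FPKM in the WT ex vivo libraries and 13.9, 15.2 and 13.7 FPKM in the Ikzf1-cko ex vivo libraries. The stimulated values were 15.7, 19.6 and 11.1 FPKM in WT Treg and 15.3, 15.8 and 17.8 FPKM in Ikzf1-cko Treg. Here WT ex vivo was the highest group and separate from the others, and Ikzf1-cko was below WT ex vivo with a log2 fold change of -0.62 ± 0.162, adjusted p = 0.0066, the one member of these windows lower in that comparison. The WT value fell with stimulation (-0.49 ± 0.187, adjusted p = 0.03), a call lost without WT ex vivo 2, WT ex vivo 3, WT stimulated 1 or WT stimulated 3 (adjusted p = 0.065 to 0.18).

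The region over the end of Tnfrsf4 (chr4:155390533-155390931, OCR_84002) had 16.9, 19.9 and 18.4 FPKM in the WT ex vivo libraries and 26.1, 26.2 and 25.5 FPKM in the Ikzf1-cko ex vivo libraries. With stimulation it had 19.5, 17.9 and 15.1 FPKM in WT Treg and 16.03, 14.5 and 17.3 FPKM in Ikzf1-cko Treg. Ikzf1-cko ex vivo was the highest group, and the other 3 overlapped. Its log2 fold change between genotypes ex vivo was 0.49 ± 0.146, adjusted p = 0.017, not passing without WT ex vivo 1 or Ikzf1-cko ex vivo 2 (adjusted p = 0.054 to 0.068), and with stimulation it was -0.70 ± 0.139, adjusted p = 0.00042 in Ikzf1-cko Treg and -0.07 ± 0.178, adjusted p = 0.77 in WT Treg. The difference between these changes did not pass (-0.63 ± 0.227, adjusted p = 0.083). A region at the end of Sdf4, 1.24 kb before Tnfrsf4 (OCR_83998, chosen after its values were seen), rose with stimulation in both genotypes, with log2 fold changes of 0.68 ± 0.217, adjusted p = 0.011 in WT and 0.68 ± 0.177, adjusted p = 0.0055 in Ikzf1-cko Treg. The WT call was lost without WT ex vivo 3 or WT stimulated 2 (adjusted p = 0.06 to 0.078) and the Ikzf1-cko call without Ikzf1-cko stimulated 1 (adjusted p = 0.054).

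Cd27 (chr6:125182640-125187028, minus strand) did not share the fall of the window sums. With stimulation 2 of its 8 tested regions fell and 1 rose in WT Treg, where 20.7% and 26.9% of all tested regions did. In Ikzf1-cko Treg 1 fell and 2 rose, where 11.5% and 12% of all did. Accessibility over the Cd27 start site (chr6:125186469-125187866, OCR_96745) was 13.5, 12.8 and 14.4 FPKM in the WT ex vivo libraries and 12.02, 14.97 and 11.3 FPKM in the Ikzf1-cko ex vivo libraries. The stimulated libraries gave 15.4, 14.6 and 15.6 FPKM in WT Treg and 13.3, 11.3 and 11.9 FPKM in Ikzf1-cko Treg. Stimulated WT libraries lay above all libraries of the Ikzf1-cko stimulated group and above all WT ex vivo libraries. The groups of the remaining comparisons overlapped. The log2 fold change with stimulation was 0.16 ± 0.128 in WT (adjusted p = 0.31) and -0.08 ± 0.111 in Ikzf1-cko Treg (adjusted p = 0.65), and neither passed. After stimulation Ikzf1-cko was below WT with a log2 fold change of -0.33 ± 0.124, adjusted p = 0.029, which did not pass without WT stimulated 1, WT stimulated 3, Ikzf1-cko stimulated 2 or Ikzf1-cko stimulated 3 (adjusted p = 0.075 to 0.1).

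The region whose sequence is given above as near Cd27 (chr6:125188428-125188860, OCR_96746, 1.40 kb before the start and over a non-coding exon of Vamp1) had 7.55, 9.18 and 5.37 FPKM in the WT ex vivo libraries and 5.71, 7.05 and 5.33 FPKM in the Ikzf1-cko ex vivo libraries. After stimulation it had 18.7, 28.7 and 20.6 FPKM in WT Treg and 18.3, 16.2 and 14.7 FPKM in Ikzf1-cko Treg. Every stimulated library lay above every ex vivo library, and stimulated WT lay above stimulated Ikzf1-cko Treg. The counts behind these values were low, 17 to 73 reads. The log2 fold change with stimulation was 1.63 ± 0.228, adjusted p = 1.5e-06 in WT and 1.43 ± 0.200, adjusted p = 3.7e-06 in Ikzf1-cko Treg, and both calls held under all 22 alternatives. The genotype difference after stimulation, -0.47 ± 0.189, adjusted p = 0.037, was lost without WT stimulated 2, Ikzf1-cko stimulated 2 or Ikzf1-cko stimulated 3 (adjusted p = 0.076 to 0.31). The region far upstream (chr6:125202673-125203164, OCR_96750, 15.64 kb before the start, intergenic) had 8.60, 6.46 and 5.91 FPKM in the WT ex vivo libraries and 3.04, 2.22 and 1.56 FPKM in the Ikzf1-cko ex vivo libraries. In the stimulated libraries it had 15.8, 7.43 and 9.30 FPKM in WT Treg and 6.61, 5.79 and 6.03 FPKM in Ikzf1-cko Treg. Ikzf1-cko ex vivo was the lowest group and separate from the others, at 9 to 47 reads per library over all groups. Its log2 fold change was -1.55 ± 0.344, adjusted p = 0.0015 between genotypes ex vivo and 1.39 ± 0.332, adjusted p = 0.0025 with stimulation in Ikzf1-cko Treg, and neither passed after quantile normalization (-0.83, adjusted p = 0.22, and 0.80, adjusted p = 0.21). With stimulation in WT Treg it was 0.67 ± 0.316 (adjusted p = 0.079). The genotype difference after stimulation was -0.83 ± 0.306, adjusted p = 0.023, lost without WT stimulated 1, Ikzf1-cko stimulated 2 or Ikzf1-cko stimulated 3 (adjusted p = 0.065 to 0.36).

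**Figure D4:**
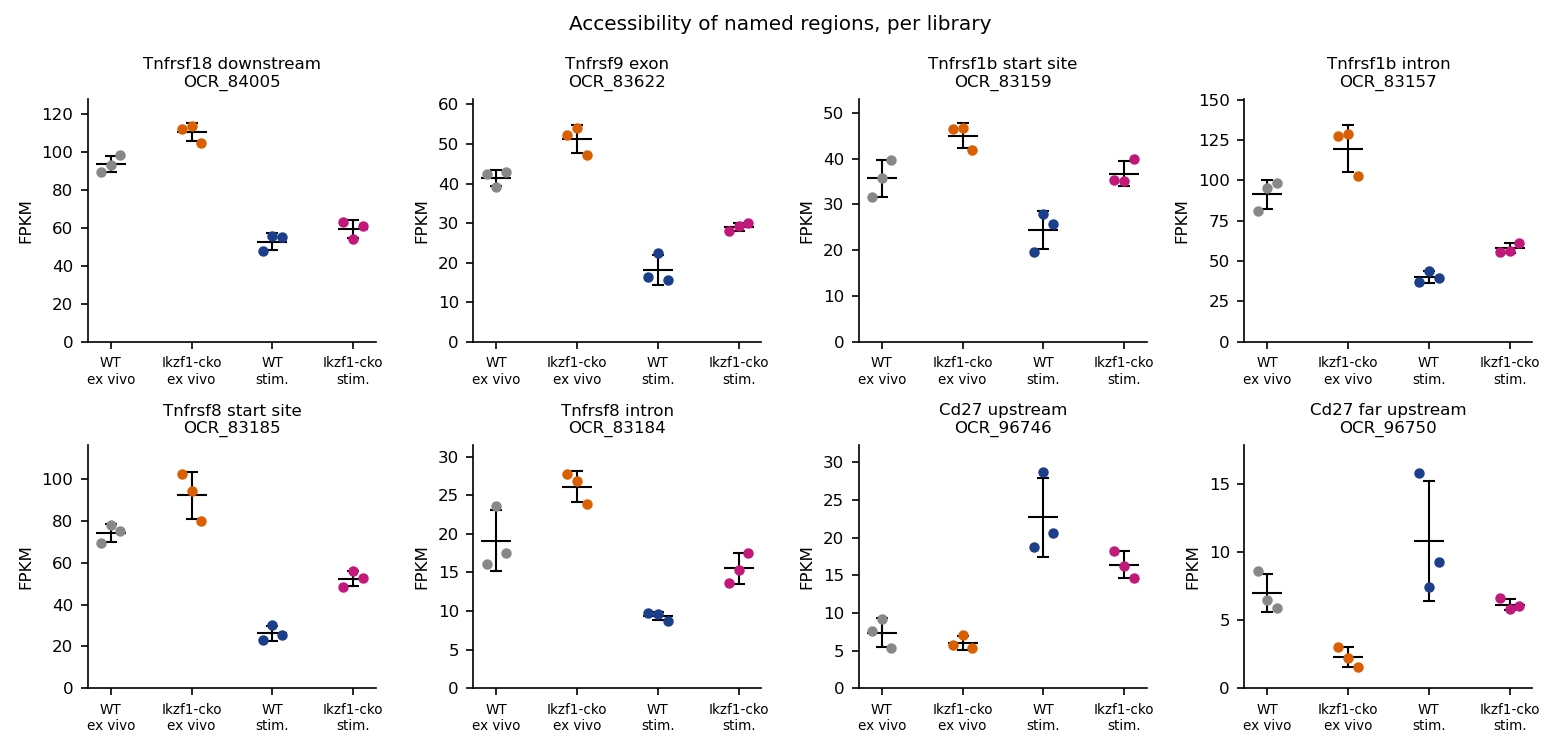
FPKM (y axis, from 0) of 8 member regions in the 12 libraries of the 4 groups (x axis); points are libraries, and bars show the mean and SD of 3 libraries. At Tnfrsf8, Tnfrsf1b, Tnfrsf9 and downstream of Tnfrsf18 the stimulated libraries lie below the ex vivo libraries of the same genotype, with Ikzf1-cko above WT in most of these panels. Near Cd27 (OCR_96746) the stimulated libraries lie above the ex vivo libraries.

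Between genotypes ex vivo, 17 of 73 members were higher in Ikzf1-cko Treg at the FDR threshold, where 8.78% of all tested regions were, and 3 were lower, where 12.7% of all were. With both thresholds 0 members were higher in edgeR's quasi-likelihood test (0.588% of all), with 26 higher at an unadjusted p under 0.05, and DESeq2, limma on log2(FPKM + 1) and limma after quantile normalization also called 0. The 1 lower past both thresholds (4.04% of all) was the region far upstream of Cd27. The 3 lower regions were that one, the Sdf4 intron and a non-coding part of a Vamp1 exon in the Cd27 window (OCR_96742, chosen after its values were seen, -0.46 ± 0.111, adjusted p = 0.003). In the bin of highest mean CPM, 10 of 26 members were higher, against 22.8% of all its regions, and the medians were 0.14 for members and 0.12 for all. TMM scaling moved the median of all regions from -0.13 to -0.02 and that of the members from 0.15 to 0.26, so the difference was 0.28 under both scalings, but it was 0.18 after loess and 0.10 after quantile normalization, where 2 members were higher at the FDR threshold. The count of higher members rested on single libraries. It was 8 without WT ex vivo 1, 9 without WT ex vivo 2, 9 without Ikzf1-cko ex vivo 1 and 4 without Ikzf1-cko ex vivo 2, and 13 of the 20 members called in either direction were lost when some library was left out.

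After stimulation, 24 members were higher in Ikzf1-cko Treg, where 20.4% of all tested regions were, and 4 were lower, where 30.7% of all were. With both thresholds 1 was higher (1.16% of all), the Tnfrsf8 start, and 0 were lower (20.2% of all), with 4 lower at an unadjusted p under 0.05. DESeq2, limma on log2(FPKM + 1) and limma after quantile normalization called 0 members lower as well. The median log2 fold change was 0.24 over members and -0.11 over all tested regions, a difference of 0.35 that shrank to 0.07 after quantile normalization. In the bin of highest mean CPM, 17 of 26 members were higher, where 61.9% of all regions were, with medians of 0.42 and 0.32. After loess normalization 10 members were higher, where 12.7% of all regions were. In that bin and after loess normalization, the members' share of higher regions was thus near that of all regions. By gene, 9 of 17 tested regions of Tnfrsf1b and 8 of 22 of Tnfrsf8 were higher in stimulated Ikzf1-cko Treg, against 5 of 17 at Tnfrsf9, 3 of 14 at Tnfrsf4 and Tnfrsf18 together and 1 of 8 at Cd27. All 4 lower regions lay in the Cd27 window, and 3 of them are described above (OCR_96745, OCR_96746 and OCR_96750). The other was OCR_96742 (-0.34 ± 0.127, adjusted p = 0.024), lost without WT stimulated 2 or Ikzf1-cko stimulated 1 (adjusted p = 0.089 to 0.1). That count was 2 without WT stimulated 1 or WT stimulated 2, and 1 without Ikzf1-cko stimulated 2 or Ikzf1-cko stimulated 3. The Cd27 region that was higher covered the start of Vamp1 (OCR_96741, chosen after its values were seen, 0.33 ± 0.111, adjusted p = 0.012).

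Whether stimulation acted differently in the genotypes was tested with the interaction, the log2 fold change between genotypes after stimulation minus that ex vivo. At the FDR threshold 4 members passed, where 7.48% of all tested regions did, so the share of members was near that of all regions. With both thresholds 0 passed (1.98% of all) in edgeR's quasi-likelihood test, with 10 positive and 2 negative at an unadjusted p under 0.05, and DESeq2 and both limma fits called 0. All 4 lay at Tnfrsf1b and Tnfrsf8 and had a smaller fall with stimulation in Ikzf1-cko than in WT Treg. In the bin of highest mean CPM the median interaction was 0.19 for members and 0.20 for all regions. Positive values were thus shared by highly accessible regions in general. With TMM scaling 1 member passed with a positive value, and with loess normalization 1 positive and 1 negative. The Tnfrsf8 start region had the largest value, 0.69 ± 0.155, adjusted p = 0.0056, which passed under all 22 alternatives with values from 0.48 to 0.81. An intronic region of Tnfrsf1b (chr4:144811048-144812445, OCR_83155) had 0.49 ± 0.109, adjusted p = 0.0054. Its accessibility was 60.97, 65.6 and 71.1 FPKM in the WT ex vivo libraries and 71.6, 71.8 and 61.02 FPKM in the Ikzf1-cko ex vivo libraries. The stimulated values were 35.6, 35.9 and 35.2 FPKM in WT Treg and 51.3, 51.3 and 51.97 FPKM in Ikzf1-cko Treg. Genotypes overlapped ex vivo and were separate after stimulation. An intergenic region 7.45 kb upstream of Tnfrsf1b (chr4:144844227-144844938, OCR_83161) had 0.50 ± 0.132, adjusted p = 0.018, lost without WT ex vivo 3, WT stimulated 1, Ikzf1-cko stimulated 2 or Ikzf1-cko stimulated 3 (adjusted p = 0.052 to 0.096). A region over a non-coding exon of Vps13d at the far end of the Tnfrsf1b window (OCR_83147) had 0.41 ± 0.127, adjusted p = 0.044, lost without WT ex vivo 2, WT ex vivo 3, Ikzf1-cko ex vivo 2, Ikzf1-cko ex vivo 3, WT stimulated 1, WT stimulated 2, WT stimulated 3, Ikzf1-cko stimulated 2 or Ikzf1-cko stimulated 3 (adjusted p = 0.06 to 0.11). These 3 regions were chosen after their values were seen. The count of 4 was 2 without WT ex vivo 3, WT stimulated 1, Ikzf1-cko stimulated 2 or Ikzf1-cko stimulated 3, 8 without Ikzf1-cko ex vivo 1 and 7 without Ikzf1-cko stimulated 1.

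By place in the genome, members comprised 8 regions over a start site of a coding gene, 22 over exons, 31 in introns and 24 between genes. The falls in WT Treg were spread over all of them, with 4 of 8 tested start site regions, 7 of 19 exonic, 13 of 26 intronic and 8 of 20 intergenic regions falling at the FDR threshold. In Ikzf1-cko Treg the counts were 4, 9, 11 and 8. Of the start regions of all coding genes, 26.9% fell in WT and 8.85% in Ikzf1-cko Treg. Of all tested regions 20.7% and 11.5% fell, and shares of all exonic, intronic and intergenic regions were not computed. Median log2 fold changes in WT Treg were -0.42 at start sites, -0.23 over exons, -0.45 in introns and -0.39 between genes. Of the calls with stimulation, 26 of 34 were kept in WT and 24 of 35 in Ikzf1-cko Treg whichever library was left out.

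The other genes of the pathway were examined at their start sites. Of the ligands of the 6 receptors, 6 of 7 had a tested region, and Tnfsf18, the ligand of Tnfrsf18, had none. With stimulation 2 ligand starts rose and 2 fell in WT Treg, and 4 rose and 1 fell in Ikzf1-cko Treg. Of the 11137 tested start regions of all coding genes, 23.4% rose and 26.9% fell in WT Treg, and 22.4% rose and 8.85% fell in Ikzf1-cko Treg. The start of Tnf, the ligand of Tnfrsf1b, had 10.02, 10.01 and 8.79 FPKM in WT ex vivo and 16.8, 25.2 and 26.5 FPKM in WT stimulated libraries, and 11.7, 16.7 and 17.4 FPKM and 20.1, 19.1 and 25.2 FPKM in the Ikzf1-cko libraries. Stimulated libraries lay above ex vivo libraries in each genotype, opposite to the start of Tnfrsf1b. The log2 fold change at Tnf was 1.24 ± 0.229, adjusted p = 7.7e-05 in WT and 0.51 ± 0.172, adjusted p = 0.028 in Ikzf1-cko Treg. The start of Tnfrsf1a, among the other receptors examined, passed in neither genotype (0.24, adjusted p = 0.19 in WT and 0.04, adjusted p = 0.84 in Ikzf1-cko Treg). The start of Tnfsf8, the ligand of Tnfrsf8, fell in both, with -0.46 ± 0.148, adjusted p = 0.01 in WT and -0.39 ± 0.116, adjusted p = 0.014 in Ikzf1-cko Treg.

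Of 22 other receptors of the superfamily, 17 had a tested start region. With stimulation, 2 rose and 3 fell in WT Treg (11.8% and 17.6%, against 23.4% and 26.9% of all start regions), and 0 rose and 1 fell in Ikzf1-cko Treg (5.88% fell, against 8.85%). Past both thresholds were Cd40 ex vivo, and Tnfrsf21 and Edar after stimulation. Cd40, a receptor best known from B cells and antigen-presenting cells, had 5.24, 5.92 and 4.60 FPKM in WT and 10.1, 10.3 and 13.5 FPKM in Ikzf1-cko ex vivo libraries, with a difference on the log2 scale of 1.10 ± 0.147, adjusted p = 2.6e-06. Tnfrsf21, a death-domain receptor, was lower in stimulated Ikzf1-cko Treg (-1.09 ± 0.159, adjusted p = 2.9e-06), as was Edar, the ectodysplasin receptor (-1.07 ± 0.211, adjusted p = 0.00013). Of 27 receptor-proximal signalling genes, 25 had a tested start region. In stimulated Ikzf1-cko Treg 20 of these (80%) were higher and 0 lower, with a median log2 fold change of 0.29. Of 11137 start regions of all coding genes, 5113 were higher and 1416 lower, with a median of 0.20. Most of the signalling starts lay in the bin of highest mean CPM. In that bin 61.9% of all regions were higher, with a median of 0.32. Ripk1, the kinase recruited to death-domain receptors, was among the higher signalling starts (0.73 ± 0.0790, adjusted p = 4.1e-08), as was Traf5, an adaptor of Tnfrsf4 and Cd27 (0.46 ± 0.0796, adjusted p = 3.2e-05). With stimulation 3 of the signalling starts rose and 8 fell in WT Treg (32% fell, against 26.9% of all start regions), and 3 rose and 1 fell in Ikzf1-cko Treg (4% fell, against 8.85%). The starts of Traf3 and Rela rose in both genotypes, with 0.70 ± 0.119, adjusted p = 2.9e-05 and 0.45 ± 0.110, adjusted p = 0.0014 in WT Treg.

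Of the 6 Treg markers with a tested start, 1 fell and 1 rose with stimulation in WT Treg (26.9% and 23.4% of all start regions). The start that fell was that of Ctla4 (-0.86 ± 0.121, adjusted p = 2e-06). Between genotypes after stimulation it differed by 0.69 ± 0.119, adjusted p = 2.9e-05. Il2ra (0.00, adjusted p = 0.99), Ikzf4 (0.26, adjusted p = 0.18), Cd4 (-0.17, adjusted p = 0.6) and Cd3e (0.28, adjusted p = 0.12) did not pass with stimulation in WT Treg. The start of Foxp3 rose with stimulation in WT Treg (1.11 ± 0.201, adjusted p = 6.4e-05) and in Ikzf1-cko Treg (0.49 ± 0.147, adjusted p = 0.015), and was higher in Ikzf1-cko Treg ex vivo (0.73 ± 0.185, adjusted p = 0.0051). As a description over the 12 libraries, the start regions of other genes whose log2(FPKM + 1) correlated best with that of Tnfrsf8 were Lactb2 and Uprt (Pearson r = 0.99 for both), among 11136 compared. For Tnfrsf1b they were Cat and Lrrc8c (0.98 for both), for Tnfrsf4 Pcdh17 and Gm10463 (0.95), for Tnfrsf18 St3gal5 and Gimap5 (0.94), for the region nearest the Tnfrsf9 start Inpp5d (0.90) and 5730559C18Rik (0.82), and for Cd27 Tnfaip2 (0.86) and Gprin2 (0.83). The libraries fall into 4 groups of differing depth, which all regions share, and 739 start regions reached 0.9 with Tnfrsf8 and 790 with Tnfrsf1b.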

How the data were processed

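ATAC-seq of sorted Treg from 4 groups of 3 libraries was analysed, with groups and replicate numbers from the sample labels. According to the methods, the authors aligned reads with bowtie2, removed duplicates, used MACS2 for peaks of each replicate, and built 1 common set of regions. A human build is printed for the alignment step, but the submitters' processing notes name mm9 and the deposited coordinates are those of mouse chromosomes, so mm9 was used. The authors deposited a raw count per region and library and an FPKM beside it. That FPKM is the count scaled by region length and by the reads on regions in that library, so levels can be compared between regions. A second deposited table by the authors gives, for called regions, F statistics, p-values, FDRs and log2 fold changes, and was not used. There were 0 unmapped columns of per-library values.

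The test on counts was the quasi-likelihood test of edgeR 4.0.16 (R 4.3.3, functions glmQLFit then glmQLFTest, library totals as scaling, a mean per group over 12 libraries, prior df 24.4), with Benjamini-Hochberg adjustment over 69957 regions that reached 3.6 CPM in at least 3 libraries. The study normalized against background bins, which needs reads outside the regions. Fold changes are Ikzf1-cko over WT and stimulated over ex vivo. With 200 regions changed by 2 on the log2 scale in a simulated ex vivo comparison of 69957 regions, 200 were recovered and 2 others were called. The simulated counts had the same spread in every region and no trend with abundance. They check that the fit recovers large changes, and do not give the rate of false calls in these data. Depth was 4808916 to 15355521 reads on regions per library, and the intervals implied by the standard errors cover library spread and counting error only. Start sites and exons came from the GENCODE annotation and sequences from the reference genome, both for mm9.

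Alternatives were DESeq2 1.42.0, limma 3.58.1 on log2(FPKM + 1) and log2(FPKM + 0.1), quantile normalization, TMM, loess against abundance, other filters and flanks, a replicate block, and fits without each library. Members and gene lists were chosen with earlier results of these data known. Counts by direction at the FDR threshold alone and in the bin of highest mean CPM were added after seeing the data. Named regions were the one over or nearest each start site, members past both thresholds, and otherwise the member with the smallest p of each comparison at a locus. List genes were named when their start region passed both thresholds, and the few others named were chosen after their values were seen.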

Additional observations from a re-analysis of the deposited data

Results flagged for a closer look

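At 4 member regions of Tnfrsf1b and Tnfrsf8 the genotype difference after stimulation differed from that ex vivo by the interaction test (edgeR's quasi-likelihood test, adjusted over all tested regions). The difference of the log2 fold changes was 0.69 at the Tnfrsf8 start (OCR_83185) with an adjusted p of 0.0056 (0.48 to 0.81 over 22 alternatives, all passing). It was 0.49 in the Tnfrsf1b intron OCR_83155 with an adjusted p of 0.0054, and passed in 19 of 22 alternatives, not with TMM, loess or quantile normalization. At OCR_83161, upstream of Tnfrsf1b, it was 0.50 with an adjusted p of 0.018 and passed in 12 of 22 alternatives. At OCR_83147, over a Vps13d exon, it was 0.41 with an adjusted p of 0.044 and passed in 4 of 22. Over all regions in the bin of highest mean CPM the median of this difference was 0.20.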

How the results depend on the processing

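Counts given here are, in this order, Ikzf1-cko against WT ex vivo, Ikzf1-cko against WT stimulated, stimulation in WT, stimulation in Ikzf1-cko and the interaction. With both thresholds 3238, 14932, 14011, 2555 and 1385 of all tested regions were called, and 1, 1, 6, 3 and 0 members. Without the fold threshold these were 15051, 35684, 33301, 16429 and 5232 regions and 20, 28, 34, 35 and 4 members. Loess normalization called 1606, 4234, 4239, 1479 and 867 regions, with 0 members after stimulation and 2 with stimulation in WT. Without a filter 7237, 33290, 32084 and 7870 regions were called in the first 4 comparisons, and with 3.6 CPM in all 12 libraries 339, 858, 1239, 276 and 314, with 0 members ex vivo and 1 with stimulation in Ikzf1-cko, by fewer regions tested. Limma on log2(FPKM + 1) called 1668 regions ex vivo and 1121 with stimulation in Ikzf1-cko, and 0 members after stimulation, and limma on log2(FPKM + 0.1) 760 in the interaction. Quantile normalization called 497 ex vivo, 274 with stimulation in Ikzf1-cko and 8113 in the interaction, with 0, 2 and 1 members ex vivo, after stimulation and with stimulation in Ikzf1-cko, the 2 being OCR_83164 and OCR_83184 and not the Tnfrsf8 start. DESeq2 called 688 in the interaction. Members of the gene body alone were 0 ex vivo and 1 with stimulation in Ikzf1-cko, and with 50 kb flanks 2 ex vivo and 3 after stimulation. Except where a smaller set of regions or members was used, the cause was not tested.

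Leaving out 1 library gave 2018 (without Ikzf1-cko ex vivo 2) to 8726 (without Ikzf1-cko ex vivo 3) regions ex vivo, 1520 to 6792 with stimulation in Ikzf1-cko, 486 to 3376 in the interaction, and 0 to 2 members after stimulation. At the FDR threshold alone, the members that fell with stimulation numbered 26 to 36 in WT and 23 to 39 in Ikzf1-cko on leaving out a library, and 21 to 36 and 15 to 34 under the other alternatives. The sign of a called difference changed after stimulation at OCR_84003 (-0.09 with loess, -0.06 with quantile normalization) and at OCR_96750 (0.01 with loess). OCR_84005, not called there at 0.17 (adjusted p = 0.12), was called at -0.20 with quantile normalization (adjusted p = 0.014). Another 40 of 1894 values of the named regions had the other sign, with an adjusted p over 0.05 in both fits.

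Cells were split into an unstimulated and a stimulated share, but the labels do not say that a number marks 1 mouse. Same-numbered libraries had deviations from their group means that correlated at -0.03 to 0.21 between WT conditions and -0.36 to 0.07 between Ikzf1-cko conditions, so the numbers were not taken as pairs. With a replicate block 3073, 14912, 13889, 2316 and 1158 regions were called, and 1, 1, 6, 3 and 0 members. With the replicate block within genotype 13548 regions were called with stimulation in WT, 2009 in Ikzf1-cko and 858 in the interaction. Depth was low at the region far upstream of Cd27, with as few as 9 reads in a library, and 12 members were too low to be tested.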
